A study of Mus musculus with 16 samples.

Results

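Lysosomal hydrolases, their activator proteins and the membrane and transport proteins of the lysosome were examined in macrophages sorted from mouse adipose tissue. The set has 42 genes and leaves out cathepsins and proton pump subunits. Members were the probe sets that carry one of these gene symbols and no other, 95 of the 34945 single-symbol probe sets on the array. These stood for 41 of the 42 genes, out of 18193 genes measured in this way, and Cd63 is not analysed here. Each gene was read from its brightest single-symbol probe set, and all 41 were bright enough to test, above the array median on all 16 arrays.

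Perigonadal fat came from C57BL/6J mice aged 12 to 14 weeks, either lean (Lep +/+) or obese and leptin-deficient (Lep ob/ob). Mice without working leptin overeat, so the obesity of this model is genetic and not induced by diet. Obesity and the lack of leptin go together in these groups and cannot be told apart. An effect of obesity below therefore means the difference between obese, leptin-deficient mice and lean ones. FB macrophages were sorted as F4/80+, CD11b+ and CD11c-, and FBC macrophages as positive for all 3 antigens, the last encoded by Itgax. Each population of each genotype had 4 arrays, so that there were 4 groups, from 4 lean and 4 obese mice, and RNA was amplified in 2 rounds before hybridisation. The labels do not say that equal array numbers mean the same mouse.

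Levels are quantile-normalized log2(intensity + 16) values and are given for arrays 1 to 4 in order. Changes are log2 differences ± SE from limma, and a change passed where its Benjamini-Hochberg adjusted p over all 11908 genes tested was under 0.05. The added 16 makes the change of dim genes look smaller than it is. The sort marker Itgax separated the sorts, its level in FBC exceeding that in FB for lean (1.49 ± 0.26, adjusted p = 0.0213) and obese mice (2.20 ± 0.26, adjusted p = 0.000111), while the differences of Adgre1, which encodes F4/80, and Itgam, which encodes CD11b, passed in neither. The ratio of 3′ to 5′ actin probe sets, which climbs as RNA degrades, was 53.3, 48.0 and 45.0 on array 4 of lean FB, lean FBC and obese FB and between 1.15 and 10.9 on the other 13 arrays; no obese FBC array had a high ratio. The number of arrays limits the precision, p-values rest on array-to-array spread alone, which may be partly technical, and in bulk RNA fewer cells of a type and less RNA per cell cannot be told apart.

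Lysosomes are acidic organelles that break down what a cell engulfs or recycles. Most of their hydrolases are soluble glycoproteins that reach the lysosome through a mannose-phosphate tag, and they act on glycosaminoglycans, glycolipids, glycoproteins, lipids, peptides or nucleic acids. Macrophages are rich in lysosomes, and in obese fat they surround dying adipocytes and take up their lipid. Many lysosomal genes carry in their promoters a palindrome, the CLEAR element, that the transcription factors TFEB, TFE3 and MITF bind.

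Promoter sequences are shown first. The genes were not chosen by the palindrome, but it is known from lysosomal genes. A share above that of all genes is therefore not an independent finding. RefSeq windows from 250 bases before to 50 bases after the transcription start (GRCm38.p6) were given for 39 of the 42 genes, as 43 windows. The core CACGTG, which reads the same on both strands, was found in the windows of 11 of the 39 genes (28.2%), against 8.09% of all 27025 genes with a window. With a T before and an A after it (TCACGTGA, also the same on both strands), it was found for 4 of 39 (10.3%) against 1.12% of all genes. Related lists had like or higher shares: CACGTG was found for 28.6% of 28 other lysosomal genes, 40% of 10 cathepsins and 30.8% of 13 proton pump subunits, and TCACGTGA for 17.9%, 20% and 23.1%. These are descriptions of letters, not of binding. The 7 stretches below, from 20 bases before the first match to 20 after the last and at most 20 bases into the transcript, are those of the 5 genes with a match that rose in obese FBC and of Gla and Mcoln1, which hold the longer form. Capitals mark CACGTG, or TCACGTGA where the flanks match.
Clcn7: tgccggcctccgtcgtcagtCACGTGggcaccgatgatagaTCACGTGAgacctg
Cln3: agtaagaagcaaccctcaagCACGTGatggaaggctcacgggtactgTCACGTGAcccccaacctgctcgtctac
Lamp1: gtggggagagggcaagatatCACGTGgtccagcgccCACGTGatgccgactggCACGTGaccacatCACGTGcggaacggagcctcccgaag
Naglu: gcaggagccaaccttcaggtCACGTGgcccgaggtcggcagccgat
Lgmn: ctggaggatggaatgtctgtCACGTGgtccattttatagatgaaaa
Gla: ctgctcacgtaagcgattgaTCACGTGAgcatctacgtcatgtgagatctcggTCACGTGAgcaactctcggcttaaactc
Mcoln1: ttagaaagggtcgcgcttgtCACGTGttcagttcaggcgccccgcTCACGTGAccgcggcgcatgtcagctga
They lie at chr17:25133356-25133410 (+ strand), chr7:126583331-126583405 (- strand), chr8:13159080-13159171 (+ strand), chr11:101070001-101070046 (+ strand), chr12:102439116-102439161 (- strand), chrX:134601173-134601253 (- strand) and chr8:3500428-3500500 (+ strand). Lamp1 holds 4 matches within its last 61 bases before the start site, Gla holds the longer form at 2 places, and in Clcn7 the core of its longer form begins at base 8 of the transcript. Of the 18 genes that rose in obese FBC, 16 had a window and 5 of these held CACGTG (31.2%), and of the other 23 genes tested 22 had a window and 6 held it (27.3%). The remaining 4 genes with the core were Arsa, Gaa, Glb1 and Sgsh.

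Obese FBC macrophages stood apart from the other groups. For 33 of the 41 genes the highest of the 4 group means was that of obese FBC (80.5%), against 39% of all genes tested. Each gene was centred on its mean over the 16 arrays, and the median over the 41 genes was then taken on each array. This median was 0.47 to 0.53 on the 4 obese FBC arrays, -0.44 to 0.12 in obese FB, -0.45 to -0.02 in lean FBC and -0.45 to -0.04 in lean FB. The lowest value in each of the last 3 groups was that of array 4, the one with the high actin ratio. Without these arrays the ranges were 0.01 to 0.12 in obese FB, -0.17 to -0.02 in lean FBC and -0.10 to -0.04 in lean FB. The lowest lysosomal levels and the highest actin ratios thus fell on the same 3 arrays. Array 4 of these groups also stood apart in cell type markers, whose part in the lysosomal values was not tested. The summed intensity of 10 macrophage markers, Cd68 among them, was 42249 on lean FB array 4, against 51173 to 53906 on the others. It was 38080 on lean FBC array 4 (others 49405 to 52785) and 40923 on obese FB array 4 (others 50218 to 51324). The summed intensity of 10 fibroblast markers was 3179 on lean FB array 4, against 18929 to 23559 on the other 3, and 1865 on lean FBC array 4, against 12102 to 15055. On lean FB array 4 the eosinophil sum was 6362 (others 388 to 562) and the monocyte sum 36235 (others 21172 to 22441). Calls lost or gained without the 3 arrays are given with each comparison below.

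**Figure D1:**
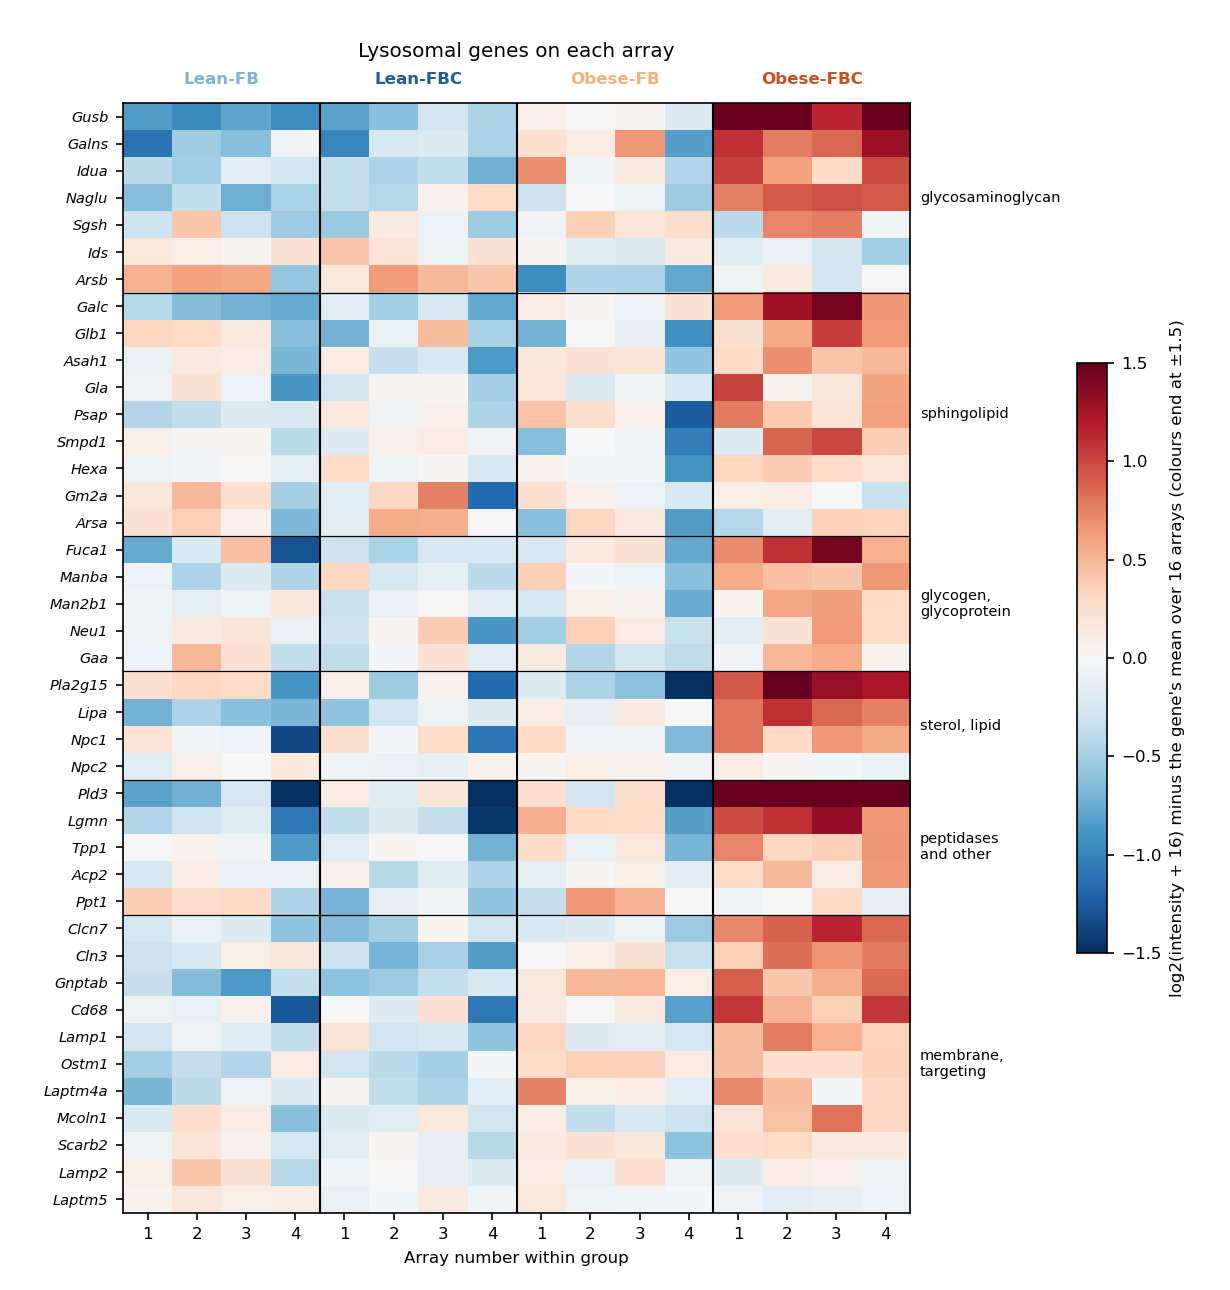
Level of each of the 41 genes (rows, by role and then by change in FBC) on each of the 16 arrays (columns, 4 a group), as log2(intensity + 16) minus the gene's mean, red above and blue below it. The 4 obese FBC columns are mostly red, and array 4 of the other 3 groups is bluer than its neighbours.

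**Figure D2:**
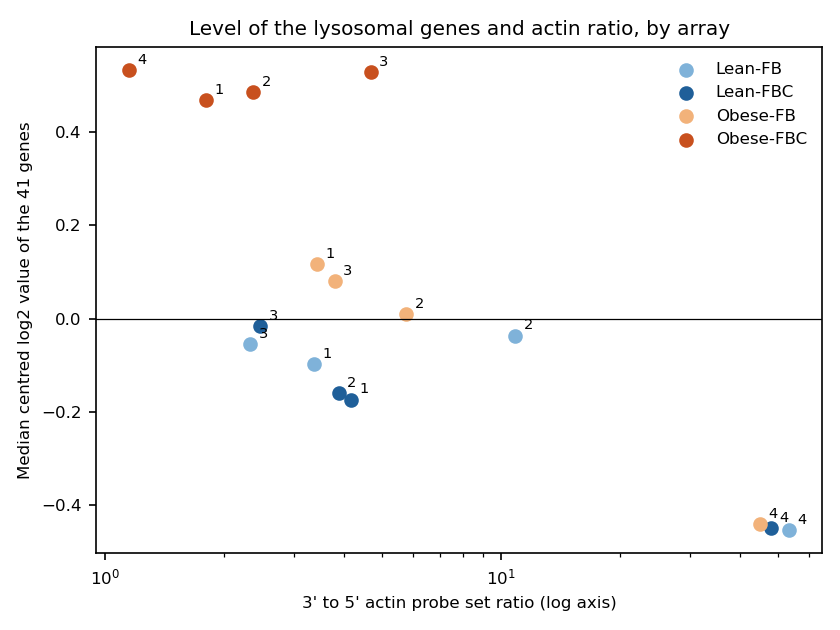
Median centred log2 value of the 41 genes on each array (vertical axis) against the 3′ to 5′ actin ratio (log axis), with array numbers. The 4 obese FBC arrays lie at 0.47 to 0.53, and the 3 arrays with ratios of 45.0 to 53.3 lie at -0.45 to -0.44.

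The comparison of obese with lean FBC cells asks how CD11c+ macrophages differ between obese, leptin-deficient mice and lean ones. Of the 41 genes, 18 rose and 0 fell (43.9%), against 14.1% of all genes tested that passed in either direction and 8.12% that rose; at an unadjusted p under 0.05, 27 of the 41 genes differed, against 28.9% of all genes tested. The median change over the 41 genes was 0.64, against 0.08 over all genes tested, and 37 of the 41 changes were positive (57.1% over all genes). In 26 genes every obese FBC array lay above every lean one, and in 2, Ids and Arsb, below; over all genes these shares were 12.4% and 7.61%. Without the 3 arrays of high actin ratio 21 rose and 0 fell, with a median of 0.56. Over all 11908 genes tested, 1417 then rose and 1090 fell, against 967 and 708 with all arrays. Cd68 (0.74 ± 0.19, adjusted p = 0.0153), Tpp1 (0.56 ± 0.16, adjusted p = 0.0241) and Man2b1 (0.54 ± 0.17, adjusted p = 0.0422) were the 3 genes of the set added. Ids passed as lower under 5 other settings (no quantile normalization, the stricter filter, trended and robust variances, array weights, and without lean FBC array 3), and Arsb with array weights.

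Of the glycosaminoglycan-degrading enzymes, 4 of 7 rose in obese FBC and 0 fell, with a median change of 1.0. Gusb, the glucuronidase that trims heparan and dermatan sulfate, read 10.32, 10.49, 10.84 and 10.65 on the lean FBC arrays and 12.78, 12.60, 12.26 and 12.60 on the obese ones, a change of 1.99 ± 0.16, adjusted p = 1.9e-06. The lowest obese array stood more than 1 unit above the highest lean one. Galns, a sulfatase of keratan sulfate, read 6.91, 7.64, 7.68 and 7.42 in lean and 8.99, 8.66, 8.75 and 9.17 in obese FBC (1.48 ± 0.29, adjusted p = 0.00317), again without overlap. Idua, the iduronidase (1.20 ± 0.22, adjusted p = 0.00212), and Naglu, a heparan sulfate glucosaminidase (1.0 ± 0.18, adjusted p = 0.00205), rose as well. The other 3 enzymes did not pass: the heparan sulfamidase Sgsh differed by 0.53 ± 0.27, the iduronate sulfatase Ids by -0.46 ± 0.16 and the galactosamine sulfatase Arsb by -0.47 ± 0.24, and Ids and Arsb had the lowest changes of all 41 genes.

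Of the sphingolipid enzymes and activators 2 of 9 rose and 0 fell, with a median of 0.57. Galc, which removes galactose from galactosylceramide, read 10.49, 10.14, 10.39 and 9.89 in lean and 11.30, 11.92, 12.09 and 11.32 in obese FBC, groups that did not overlap (1.43 ± 0.20, adjusted p = 0.000191). Asah1, the acid ceramidase, read 12.74, 12.27, 12.39 and 11.75 in lean and 12.91, 13.30, 13.03 and 13.09 in obese FBC (0.79 ± 0.24, adjusted p = 0.0389). Its groups did not overlap, but lean array 4 was the lowest of the lean arrays, and the call ended without it (adjusted p = 0.104). It ended as well without any of the other FBC arrays except lean array 1 (adjusted p 0.0519 to 0.107), without quantile normalization (0.137) and with median centring (0.142). The galactosidases Glb1 (0.82 ± 0.29) and Gla (0.64 ± 0.25), the sphingomyelinase Smpd1 (0.52 ± 0.27), the saposin precursor Psap (0.57 ± 0.29) and the hexosaminidase subunit Hexa (0.29 ± 0.19) did not pass. Neither did the sulfatidase Arsa (-0.21 ± 0.30) or the ganglioside activator Gm2a (0.04 ± 0.32), whose change was the closest to 0 of all 41 genes.

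Among the enzymes of glycogen and glycoproteins 2 of 5 rose and 0 fell (median 0.54). The fucosidase Fuca1 read 9.99, 9.83, 10.04 and 10.06 in lean and 11.01, 11.39, 11.73 and 10.83 in obese FBC (1.26 ± 0.32, adjusted p = 0.0146). The mannosidase Manba read 10.39, 9.80, 9.92 and 9.67 and 10.62, 10.52, 10.48 and 10.72 (0.64 ± 0.21, adjusted p = 0.0484), a difference close to the threshold, whose call ended under 18 of 28 other settings. Leaving out lean FBC array 2, 3 or 4 or any 1 obese FBC array was among these (adjusted p 0.0678 to 0.12), as was leaving out FB arrays 1, 2 or 3 of lean or 2 or 3 of obese mice (adjusted p 0.0556 to 0.0616). Man2b1, another mannosidase (0.54 ± 0.19), the sialidase Neu1 (0.44 ± 0.26) and the glycogen-degrading glucosidase Gaa (0.35 ± 0.22) did not pass.

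Of the 4 genes of sterol and lipid handling 2 rose and 0 fell (median 0.95), both of them hydrolases. Pla2g15, a phospholipase of the lysosome, read 9.64, 9.02, 9.61 and 8.38 in lean and 10.48, 11.09, 10.86 and 10.77 in obese FBC (1.64 ± 0.39, adjusted p = 0.0112). Lipa, the acid lipase that frees cholesterol and fatty acids from lipoproteins and lipid droplets, read 11.14, 11.46, 11.68 and 11.54 and 12.55, 12.85, 12.61 and 12.50 (1.17 ± 0.15, adjusted p = 0.000118). Both genes had every obese array above every lean one. Npc1 and Npc2, which carry cholesterol out of the lysosome, had values of 0.73 ± 0.34 and 0.06 ± 0.13 and did not pass, though Npc1 did with the replicate block and with array weights. Whether the exporters differ from the hydrolases was not tested.

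In the group of peptidases and other hydrolases 3 of 5 rose and 0 fell (median 0.73). Pld3, a nuclease of the phospholipase D family, read 9.86, 9.57, 9.94 and 8.25 in lean and 11.71, 11.36, 11.26 and 11.77 in obese FBC, with the highest change of the 41 genes (2.12 ± 0.49, adjusted p = 0.00933). Array 4 of lean FBC was well below the other 3, and without the arrays of high actin ratio the change was 1.73 ± 0.21, adjusted p = 6.65e-05. Legumain, Lgmn, an endopeptidase that also activates cathepsins, read 11.69, 11.87, 11.72 and 10.61 and 13.04, 13.16, 13.39 and 12.72 (1.60 ± 0.32, adjusted p = 0.00344), with the same low array 4. The acid phosphatase Acp2 read 9.36, 8.87, 9.10 and 8.82 and 9.58, 9.77, 9.42 and 9.94 (0.64 ± 0.17, adjusted p = 0.0194), a small but non-overlapping difference, whose call ended without lean FBC array 2 or obese FBC array 2 or 4 (adjusted p 0.056 to 0.0657). Tpp1, a tripeptidyl peptidase (0.73 ± 0.25, adjusted p = 0.0641), and the palmitoyl thioesterase Ppt1 (0.39 ± 0.25, adjusted p = 0.316) did not pass.

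Of the membrane and targeting proteins 5 of 11 rose and 0 fell (median 0.62). Clcn7, the lysosomal chloride-proton exchanger, read 9.11, 9.25, 9.79 and 9.47 in lean and 10.48, 10.64, 10.90 and 10.61 in obese FBC (1.26 ± 0.18, adjusted p = 0.000284), and its partner subunit Ostm1 read 10.62, 10.50, 10.40 and 10.88 and 11.37, 11.13, 11.13 and 11.25 (0.62 ± 0.17, adjusted p = 0.0214). The Ostm1 call ended without lean FBC array 2 or 3 or obese FBC array 1 (adjusted p 0.0556 to 0.0642), without quantile normalization (0.0532) and with median centring (0.125). Cln3, a membrane protein mutated in a neuronal storage disease, read 8.48, 8.12, 8.32 and 7.97 and 9.16, 9.64, 9.47 and 9.59 (1.24 ± 0.18, adjusted p = 0.000324). Gnptab, which makes the mannose-phosphate tag in the Golgi, read 8.61, 8.68, 8.86 and 8.99 and 10.12, 9.63, 9.77 and 10.08 (1.12 ± 0.18, adjusted p = 0.00064), and both genes had obese arrays wholly above lean ones. Lamp1, a main glycoprotein of the lysosomal membrane, read 12.92, 12.44, 12.50 and 12.12 and 13.20, 13.50, 13.25 and 13.06 (0.76 ± 0.19, adjusted p = 0.0136); its call too depended on the quantile normalization (adjusted p = 0.14 without it and 0.177 with median centring). The macrophage membrane protein Cd68 fell just outside the threshold although its groups did not overlap (1.01 ± 0.33, adjusted p = 0.0525). Scarb2, Mcoln1, Laptm4a, Lamp2 and Laptm5 did not pass, with changes from -0.09 to 0.61.

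**Figure D3:**
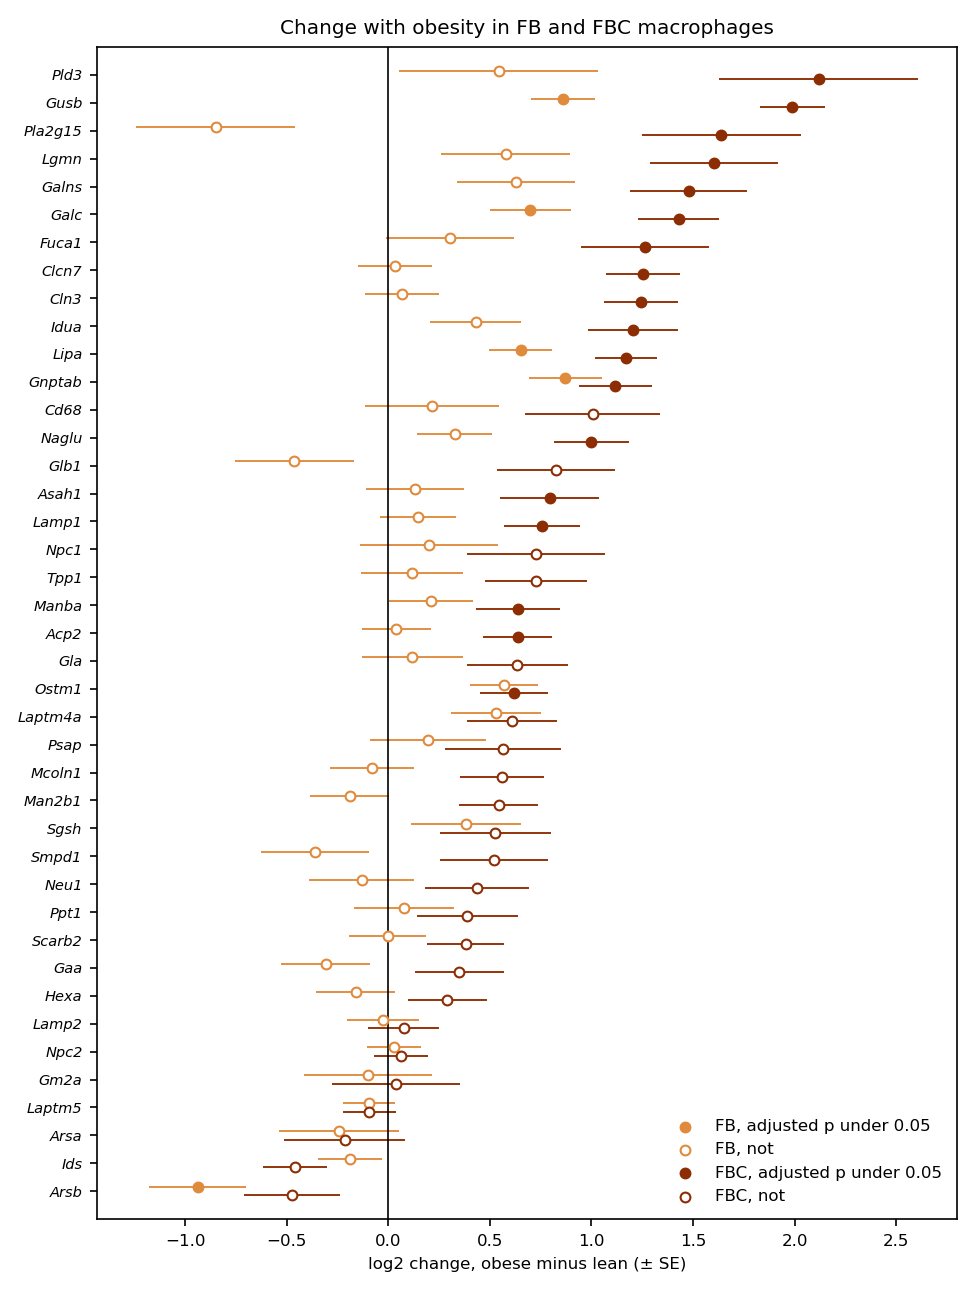
Log2 change ± SE with obesity of each of the 41 genes in FB (light) and FBC macrophages (dark), filled where the adjusted p was under 0.05 and ordered by the change in FBC. In FBC 18 genes are filled, all to the right of 0, and in FB 5, of which Arsb lies to the left.

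In FB macrophages, the cells without CD11c, the same comparison gave 4 genes higher and 1 lower of 41 (12.2%), against 5.89% of all genes tested (1.81% higher and 4.07% lower). The median change was 0.12 (0.03 over all genes). It was -0.07 without lean FB array 4, 0.20 without obese FB array 4 and 0.11 without all arrays of high actin ratio. The 5 genes came from 4 of the role groups: 2 glycosaminoglycan enzymes, 1 sphingolipid enzyme, 1 lipase and 1 targeting enzyme. Of the 4 higher genes, each had all obese FB arrays above all lean ones, as had 5.52% of all genes tested. Gnptab read 8.87, 8.58, 8.36 and 8.86 in lean and 9.38, 9.73, 9.73 and 9.33 in obese FB (0.87 ± 0.18, adjusted p = 0.0079), and Gusb read 10.28, 10.16, 10.33 and 10.18 and 11.20, 11.13, 11.16 and 10.91 (0.86 ± 0.16, adjusted p = 0.004). The Gnptab and Gusb calls held under all 28 other settings followed by gene, which leave out the 2-fold minimum that neither met.

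Galc read 10.23, 10.0, 9.94 and 9.91 in lean and 10.77, 10.67, 10.57 and 10.87 in obese FB (0.70 ± 0.20, adjusted p = 0.0481), at the edge of the threshold: leaving out any 1 of the 8 FB arrays ended the call (adjusted p 0.0574 to 0.133), as did leaving out lean FBC array 2 or 3 or obese FBC array 2 (adjusted p 0.0528 to 0.0641). The Galc value was 0.36, adjusted p = 0.201 with the mean of its probe sets, and 0.61, adjusted p = 0.072 without the arrays of high actin ratio. Lipa read 11.05, 11.29, 11.12 and 11.07 and 11.86, 11.63, 11.89 and 11.75 (0.65 ± 0.15, adjusted p = 0.019), and its call ended without lean FB array 1 or 3 or obese FB array 3 (adjusted p 0.0619 to 0.066). Arsb was the gene that fell, reading 10.32, 10.39, 10.37 and 9.20 in lean and 8.85, 9.34, 9.32 and 9.03 in obese FB (-0.94 ± 0.24, adjusted p = 0.0273). Lean array 4 lay within the obese range, and the other 3 lean arrays read 10.32 to 10.39. Without the arrays of high actin ratio the change was -1.19 ± 0.19, adjusted p = 0.000648; without lean FB array 1, 2 or 3 or obese FB array 1 or 4 the call ended (adjusted p 0.0521 to 0.107). It also ended with the mean of its probe sets (-0.53, adjusted p = 0.0927) and with only the FB groups in the fit (adjusted p = 0.0932).

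The count in FB moved with single arrays, to 2, 3 and 2 genes without lean FB array 1, 2 or 3 and to 3 without obese FB array 1 or 3. Over all 11908 genes tested these counts were 401, 333 and 336, and 512 and 395, against 701 with all arrays. Leaving out the 3 arrays of high actin ratio gave 9, 7 higher and 2 lower, and 2022 over all genes, 834 higher and 1188 lower. Pla2g15 then passed as lower in obese FB (-0.71 ± 0.21, adjusted p = 0.029), against -0.85 ± 0.39, adjusted p = 0.23 with all arrays, and Lgmn (0.69 ± 0.18, adjusted p = 0.0189), Galns (1.10 ± 0.25, adjusted p = 0.00687), Ostm1 (0.76 ± 0.15, adjusted p = 0.00276) and Psap (0.60 ± 0.18, adjusted p = 0.0353) as higher, while Galc was lost. On arrays 1 to 3, Pla2g15 read 9.79 to 9.86 in lean FB and 8.93 to 9.34 in obese FB.

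Whether the obesity effect differed between FBC and FB was tested as an interaction in the same model. By limma 0 of the 41 genes passed (0.16% of all genes tested did), while 18 had an unadjusted p under 0.05 (13.2% of all genes tested), and 40 of the 41 differences were positive (56% over all genes) with a median of 0.60 (0.07 over all genes). The 4 genes closest to the threshold were Gusb (1.13 ± 0.23, adjusted p = 0.0611), Clcn7 (1.22 ± 0.26, adjusted p = 0.0672), Pla2g15 (2.49 ± 0.55, adjusted p = 0.0687) and Cln3 (1.18 ± 0.26, adjusted p = 0.0687). Pla2g15 had the largest difference, with a change of 1.64 ± 0.39 in FBC and of -0.85 ± 0.39 in FB. Gusb changed in both populations, by 1.99 ± 0.16 and 0.86 ± 0.16, while the values for Clcn7 were 1.26 ± 0.18 and 0.03 ± 0.18.

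With the array number as a replicate block 4 genes passed the interaction: Gusb (adjusted p = 0.0368), Pla2g15 (0.0231), Clcn7 (0.027) and Cln3 (0.0493). Over all 11908 genes tested 152 passed, against 19 in the main fit. The other probe sets of Clcn7 and Cln3 did not share their rise in FBC, as given below. With the mouse, taken as genotype and number, as the block 3 passed (Gusb, 0.0372, Pla2g15, 0.0236, and Clcn7, 0.0388), and 230 of all genes. The same 3 genes passed without the arrays of high actin ratio: Pla2g15 (2.09 ± 0.28, adjusted p = 0.00386), Clcn7 (1.25 ± 0.26, adjusted p = 0.0248) and Gusb (1.11 ± 0.25, adjusted p = 0.0326). There 298 of all genes passed. Single arrays moved the count too, to 5 without lean FB array 4, 2 without lean FBC array 3 and 2 without obese FB array 1, and over all genes to 349, 20 and 62. Thus, whether the difference passed for these genes depended on the settings, and no setting gave a gene in the other direction.

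**Figure D4:**
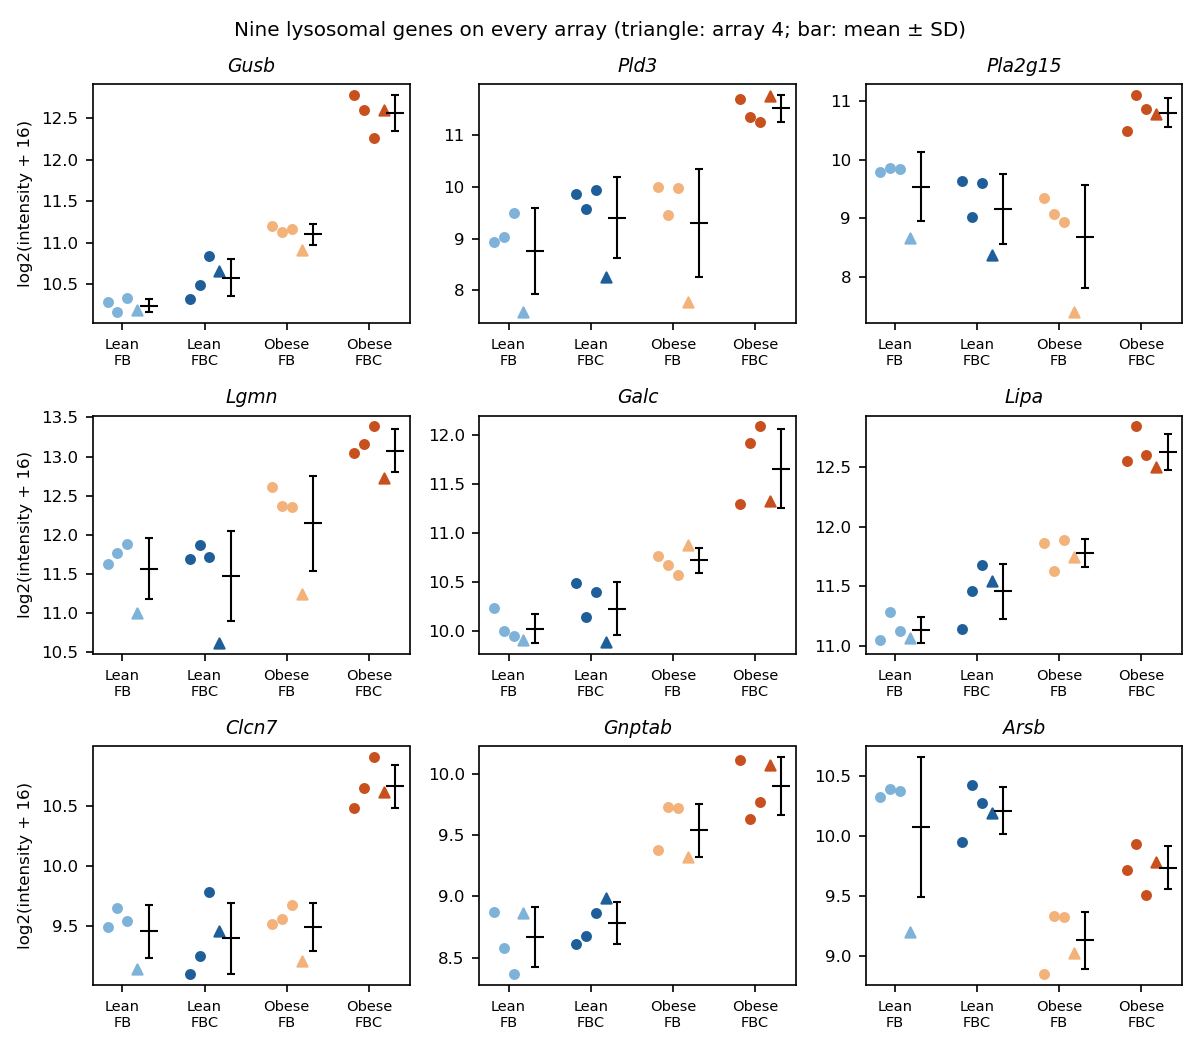
Level of 9 genes, as log2(intensity + 16), on each array of the 4 groups; circles are arrays 1 to 3, triangles array 4, and bars the mean ± SD of 4 arrays. Gusb lies at 10.91 to 11.20 in obese FB and at 12.26 to 12.78 in obese FBC, Clcn7 has all 4 obese FBC arrays above the other 12, and array 4 is low for Pld3, Lgmn and Pla2g15 in 3 groups.

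Between FBC and FB cells of lean mice, the comparison of the 2 populations without obesity, 0 of the 41 genes passed by limma, 3 had an unadjusted p under 0.05 (7.32%, against 8.2% of all genes tested), and 0.193% of all genes tested passed. The median change was -0.00 and the changes ran from -0.52 (Cln3) to 0.65 (Pld3). In 1 gene, Cln3, every FBC array lay below every FB array (2.15% of all genes tested), at 8.48, 8.12, 8.32 and 7.97 against 8.49, 8.58, 8.91 and 8.98 (-0.52 ± 0.18, adjusted p = 0.42). Pld3 read 9.86, 9.57, 9.94 and 8.25 in lean FBC and 8.94, 9.03, 9.50 and 7.57 in lean FB (0.65 ± 0.49, adjusted p = 0.79), with array 4 lowest in both. Whether array numbers pair the lean mice is not known, and with the mouse as a block 0 of the 41 genes passed as well.

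In obese mice 12 of the 41 genes were higher in FBC than in FB and 0 lower (29.3%), against 8.39% of all genes tested in either direction and 5.11% higher. The median was 0.61 (0.08 over all genes), and in 22 genes the FBC arrays lay wholly above the FB arrays (11% over all genes). The obese FBC arrays here are the same as in the comparison with lean FBC, so the values of both are given side by side and not as independent results. Pld3 (2.22 ± 0.49, adjusted p = 0.00985) and Pla2g15 (2.11 ± 0.39, adjusted p = 0.00323) differed most. Pld3 read 10.0, 9.46, 9.98 and 7.77 in obese FB and Pla2g15 9.34, 9.07, 8.93 and 7.40, in each case with array 4 far below the rest; without the arrays of high actin ratio the changes were 1.71 ± 0.21, adjusted p = 0.000156 and 1.68 ± 0.19, adjusted p = 0.000125. Gusb (1.46 ± 0.16, adjusted p = 6.34e-05), Clcn7 (1.16 ± 0.18, adjusted p = 0.00102), Naglu (1.12 ± 0.18, adjusted p = 0.00145), Lipa (0.85 ± 0.15, adjusted p = 0.00288) and Galc (0.94 ± 0.20, adjusted p = 0.00809) followed. When all probe sets of a gene were averaged, the calls of Clcn7 (0.43, adjusted p = 0.235) and Galc (0.45, adjusted p = 0.0913) ended.

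Clcn7 read 9.52, 9.56, 9.68 and 9.21 in obese FB, within the range of its lean arrays, and Galc read 10.77, 10.67, 10.57 and 10.87 there. Cln3 read 8.81, 8.91, 9.03 and 8.48 and Galns 8.13, 8.0, 8.53 and 7.06 in obese FB. The smaller differences were those of Fuca1 (1.10 ± 0.32, adjusted p = 0.0405), Glb1 (1.05 ± 0.29, adjusted p = 0.034), Galns (0.96 ± 0.29, adjusted p = 0.0499), Smpd1 (0.94 ± 0.27, adjusted p = 0.0381) and Cln3 (0.66 ± 0.18, adjusted p = 0.0349). These 5 calls ended on leaving out single arrays, among them obese FB array 4, without which their adjusted p was 0.106 to 0.151. The count was 7 without obese FB array 4, obese FBC array 2 or obese FBC array 3, 7 with the actin ratio as a covariate, and 11 without the 3 arrays of high ratio. Over all genes these counts were 606, 553, 721, 689 and 1377, against 999 in the main fit. Without the 3 arrays Cln3 (0.55, adjusted p = 0.0521), Galns (0.67, adjusted p = 0.0737) and Smpd1 (0.74, adjusted p = 0.0812) were lost. Cd68 (0.66 ± 0.19, adjusted p = 0.042) and Lgmn (0.63 ± 0.17, adjusted p = 0.0289) were gained.

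Several genes had more than 1 probe set, and the choice of the brightest one mattered for some. In obese against lean FBC, 8 of the 18 genes that rose had another probe set above the filter; in 6 of these every other probe set had the same sign, and in 3 another one passed as well when all probe sets were tested singly. Lipa had probe sets at 1.17, 1.81 and 1.55, and Gusb at 1.99 and 1.06. The others of Clcn7, at -0.31 and 0.03, and of Cln3, at -0.09, did not share their rise. Tested singly, 22 genes had a probe set that rose, and for 5 of them the brightest one had not passed. Over the whole array 1344 of 21070 probe sets tested rose. That is a count of probe sets and not of genes, and a gene with several probe sets had several chances to pass. Lamp2, a membrane glycoprotein that also takes part in autophagy, had values of 0.07 and 0.26 at 2 probe sets and rose by 0.93 (adjusted p = 0.00889) and 0.68 (adjusted p = 0.0254) at 2 others by limma over all probe sets. The peptidase Tpp1 (1.13, adjusted p = 0.00189), Man2b1 (1.13, adjusted p = 0.0408), the calcium channel Mcoln1 (1.04, adjusted p = 0.00823) and Ppt1 (0.86, adjusted p = 0.0324) also rose at a dimmer probe set.

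**Figure D5:**
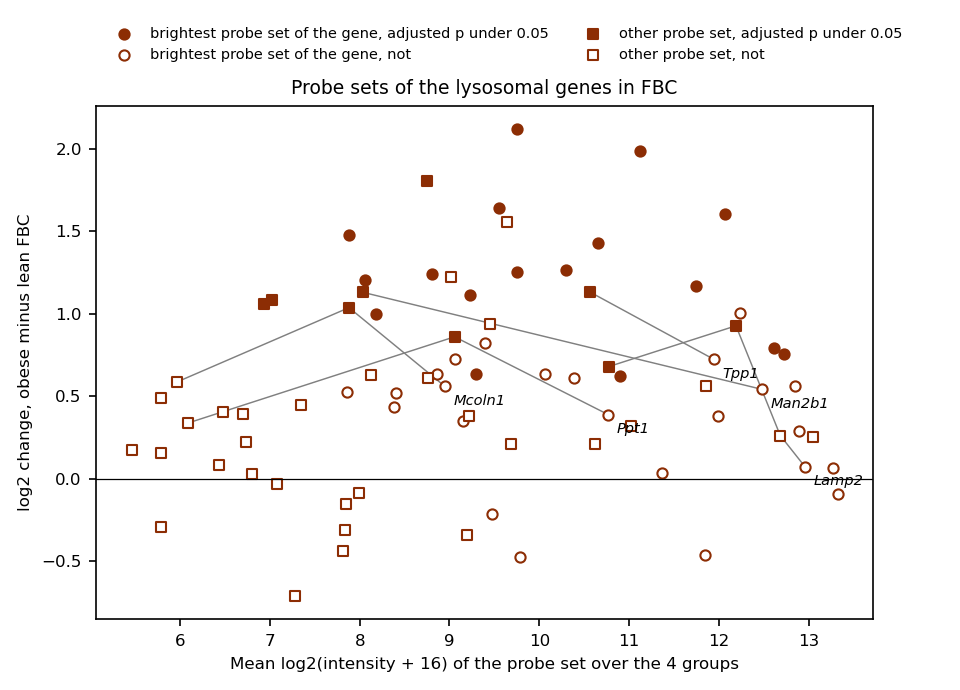
Log2 change in obese against lean FBC of each probe set above the filter (vertical axis) against its mean log2(intensity + 16) over the 4 groups; circles are the brightest probe set of a gene, squares the others, filled where the adjusted p over all probe sets was under 0.05. Lines join the probe sets of Lamp2, Tpp1, Man2b1, Mcoln1 and Ppt1, whose filled squares lie above their open circles.

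Other lysosomal genes gave context for the set. Of 33 tested further genes of lysosomal enzymes, transporters and sorting, 10 rose and 3 fell in obese FBC, with a median of 0.42. Igf2r, the receptor that sorts tagged hydrolases (2.13 ± 0.41, adjusted p = 0.00284), and Hgsnat, an acetyltransferase of heparan sulfate breakdown (1.71 ± 0.17, adjusted p = 6.03e-06), rose most, and Naaa (-0.92 ± 0.21, adjusted p = 0.00782), an amidase of lipid amides, and Plbd1 (-0.79 ± 0.24, adjusted p = 0.0389) fell most. In obese FB 2 of these 33 rose and 1 fell. Cathepsins had 4 of 13 higher in obese FBC, with Ctsk (3.51 ± 0.46) and Ctsd (1.49 ± 0.33) highest, and proton pump subunits 6 higher and 1 lower of 18. None of the 4 MiT/TFE factors passed in obese FBC by limma (2 at an unadjusted p under 0.05), with changes from 0.12 ± 0.27 for Tfe3 to 0.83 ± 0.44 for Tfec.

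Markers of cell types moved with the groups as well, and their part in the results above was not tested. The summed intensity of 10 of 10 macrophage markers, Cd68 among them, was 58121 to 62595 in obese FBC, 38080 to 52785 in lean FBC, 40923 to 51324 in obese FB and 42249 to 53906 in lean FB. For 7 of 8 dendritic cell markers it was 2916 to 5853 in obese and 6334 to 11271 in lean FBC, and 608 to 935 in obese and 1974 to 2458 in lean FB, with Xcr1 below the array median in each group. For 5 of 6 B cell markers it was 1906 to 3277 in obese and 5599 to 7748 in lean FBC, with Cd79a and Pax5 below the array median in both and Ms4a1 below it in obese FBC. For 6 of 8 monocyte markers the sums were 9551 to 15919 in obese and 14983 to 19707 in lean FBC, and 34210 to 46879 in obese and 21172 to 36235 in lean FB. Of these 6 markers 5 were lower in obese FBC than in obese FB (median -2.90) and 3 higher in obese than in lean FB (median 1.56). In obese against lean FBC the sums were, for 6 of 8 neutrophil markers, 425 to 1301 and 801 to 3266, and for 6 of 6 eosinophil markers 89.7 to 158 and 272 to 962, with 5 of the 6, Epx and Prg2 among them, below the array median in both. For 10 of 10 fibroblast markers the sums were 2747 to 15421 in obese and 1865 to 15055 in lean FBC. In FB they were 2238 to 3208 in obese and 3179 to 23559 in lean mice, and 5 of the 10 fell in obese FB (median -2.07). Adgre1 itself rose in obese FBC (1.08 ± 0.24, adjusted p = 0.00668). The macrophage, dendritic cell, B cell and eosinophil sums did not overlap between obese and lean FBC, the first being higher and the others lower in obese mice. Sums rest mostly on the brightest markers. By the mean of centred log2 values, macrophage markers overlapped, at 0.19 to 0.30 in obese and -0.51 to 0.21 in lean FBC. B cell markers overlapped too, at -0.65 to -0.22 and -0.32 to 0.29, while dendritic cell and eosinophil markers did not. Sums of T and NK cell, endothelial, mesothelial and adipocyte markers overlapped between obese and lean FBC. For 8 of 10 adipocyte markers the overlap came from lean FBC array 4, at 19608. The sums were 24718 to 25613 on lean FBC arrays 1 to 3 and 19687 to 22557 in obese FBC, with Cidec below the array median in both.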

How the data were processed

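Labelled cRNA from sorted macrophages was hybridised to 16 Mouse Genome 430 2.0 arrays, 4 in each of 4 groups. The values are linear intensities for 45101 probe sets, deposited by the authors, whose tool was Affymetrix Expression Console (per the submitters' notes on processing); the summarization method is not given in the sources used here.

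With R 4.3.3, intensities were taken as log2(intensity + 16) and then quantile-normalized over all probe sets. The 64 control probe sets stayed out of the tests. Probe sets with 1 gene symbol in the platform annotation were kept (932 with several were not), and each gene was read from the one with the highest mean. Genes brighter than the median of an array on 4 arrays or more were tested, 11908 in all. One model over the 16 arrays was fitted with limma 3.58.1 (lmFit and eBayes, 12 residual degrees of freedom) for 5 contrasts, with Benjamini-Hochberg adjustment over all genes and a threshold of 0.05. The fit was tested on simulated data.

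The members and gene lists were chosen with earlier results of these data known. Array values are given for genes that passed in groups that did not overlap, the 8 highest and 5 lowest changes for obese against lean FBC and the 4 highest and lowest for the other comparisons, and for some further members chosen after their values were seen (Arsb, and levels of named genes in a group outside the comparison they were chosen for). Alternatives were another pseudocount, normalization, filter, choice of probe set or variance model, blocks for array number and mouse, the actin ratio, a 2-fold minimum and leaving out each array. FB and FBC cells came from 4 lean and 4 obese mice per the series' design text, which does not number them. Deviations from the group means were correlated between FB and FBC arrays. For the same number, r was 0.14, 0.23, 0.30 and 0.60 for numbers 1 to 4 in lean mice and 0.31, 0.03, -0.03 and -0.14 in obese mice. The highest r of each FB array with an FBC array of another number was 0.37, 0.22, 0.26 and -0.17 in lean mice and -0.05, 0.11, 0.18 and 0.16 in obese mice. Both lean arrays of number 4 had the high actin ratio. The values thus do not settle whether numbers mark mice.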

Additional observations from a re-analysis of the deposited data

Results flagged for a closer look

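Within each group of 4 arrays, 12 of 164 combinations of gene and group had 1 array that stood far from the other 3 (its gap to the nearest one over the range was above Dixon's critical value, which chance gives in about 1 of 20 groups). Of these, 11 were array 4 of lean FB, lean FBC or obese FB, the arrays with the high actin ratio, and each of the 11 was the lowest of its group. The part of RNA quality, or of the cell type markers in which array 4 of these groups also stood apart, was not tested.

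On lean FB array 4 there were 6 such genes. Arsb read 9.20 there, against 10.32 on the next lowest array, Pla2g15 read 8.67 (9.79 on the next) and Cd68 read 10.96 (12.12). Tpp1 read 11.10 (11.89), Ppt1 read 10.32 (11.03) and Smpd1 read 8.0 (8.43). Obese FB array 4 had 4: Hexa at 11.99 (12.86), Asah1 at 12.02 (12.78), Cd68 at 11.42 (12.24) and Scarb2 at 11.38 (12.13). Lean FBC array 4 had Lgmn at 10.61 (11.69). The remaining one was high, Lamp1 at 13.03 on obese FB array 1, against 12.57 on the next array. No obese FBC array stood apart in this way for any of the 41 genes.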

How the results depend on the processing

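The count of genes that passed kept within 1.5 times its main value under every alternative run, single arrays left out aside, except these. In obese against lean FB (5 genes) it was 11 with array weights, 9 without the arrays of high actin ratio and 0 with a 2-fold minimum. Over all 11908 genes tested the counts there were 3987, 2022 and 490, against 701 in the main fit. In obese against lean FBC (18) it was 29 with array weights, and in lean FBC against FB (0) it was 2 with them. Calls over all genes then rose as well, from 1675 to 4115 and from 23 to 1324. In obese FBC against FB (12) it was 19 with array weights, 7 with the actin ratio as a covariate and 7 with a 2-fold minimum. Over all genes these were 2202, 689 and 555, against 999 in the main fit. For the difference between populations (0) it was 16 with array weights, 4 with the replicate block, 3 with the block by mouse, 3 without the arrays of high actin ratio and 1 each with the stricter filter, trended and robust variances or the actin covariate. Over all genes these were 1536, 152, 230, 298, 23, 30 and 22, against 19 in the main fit. With 1 array left out the counts ran from 2 to 6 in FB, 14 to 23 in FBC, 0 to 0 in lean and 7 to 14 in obese FBC against FB, and 0 to 5 for the difference. Over all genes they ran from 333 to 1501, 1040 to 2011, 8 to 34, 553 to 1328 and 2 to 349. The array number or mouse as a block ended 1 call named above, that of Galns in obese FBC against FB (adjusted p = 0.0509).

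Of the single calls, 2 of 5 in FB, 12 of 18 in FBC and 5 of 12 in obese FBC against FB held under every alternative followed by gene. The 2-fold minimum and the test of all probe sets singly were not among these, and with the 2-fold minimum 0, 12 and 7 passed. Over all 11908 genes tested, 490, 811 and 555 passed with it. Cln3 in obese FBC against FB turned to -0.024 with the mean of its probe sets, which include one that did not rise, and Clcn7 in FBC was no longer called (adjusted p = 0.343). The median over the 41 genes moved for the difference between populations to 0.33 with median centring and for obese FBC against FB to 0.38 with the actin covariate. Without quantile normalization the median of all genes for the difference was 0.17 in place of 0.07. With median centring 907 genes were higher and 318 lower in obese FBC against FB, in place of 609 and 390, and 39 and 3 in place of 18 and 5 in lean mice. The cause of these moves was not tested. A number of 4 arrays a group, 3 of the 16 with a high actin ratio, limits the precision.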
